A study of Mus musculus with 8 samples.

Results

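The genes described here encode the proteins of the mitochondrial ribosome. They were taken as every protein-coding gene whose symbol is Mrpl or Mrps, then a number and at most 1 letter, and were matched by Ensembl identifier to the deposited tables. The rule gave 78 genes of the 47643 listed, 49 named for the large subunit (Mrpl) and 29 for the small subunit (Mrps). All 78 passed the filter on low counts, which kept 13829 genes in all. The kidneys were those of wild-type mice (4 libraries, WT 1 to WT 4) and of mice of the genotype Six2-Cre;Cox10-fl/fl (4 libraries, cKO 1 to cKO 4). WT 2 and cKO 2 came from animals aged 2.5 months and the other libraries from animals aged 3 months. Six2-Cre acts in the progenitors of the nephron epithelium, so collecting duct, stroma, vessels and blood cells of the same kidney keep Cox10. Cox10 encodes the enzyme that makes heme O, a step on the way to the heme A of cytochrome c oxidase. The labels do not say whether the wild-type mice carried Cre or floxed alleles, nor that the kidneys were pooled. Polyadenylated RNA of kidney was sequenced. In such bulk RNA, fewer cells of a type and less RNA per cell cannot be told apart.

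The mitochondrial ribosome translates the few proteins that mitochondrial DNA encodes, all of them core parts of the respiratory chain and ATP synthase. Its ribosomal RNA is mitochondrial, but every one of its proteins is encoded in the nucleus, made in the cytosol and imported. Many of the proteins descend from the bacterial ribosome, and the others were acquired in the mitochondrial lineage. Kidney tubules, above all proximal tubule and thick ascending limb, are rich in mitochondria. Cytochrome c oxidase itself contains subunits made on this ribosome.

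Total counts per library were 9454830 to 15838026. Cox10 had 24.6, 19.6, 19.2 and 20.4 CPM (the count scaled to a common library size) in WT 1 to WT 4 and 19.5, 10.9, 20.8 and 22.3 CPM in cKO 1 to cKO 4. The groups overlapped (21.0 ± 2.47 against 18.4 ± 5.12 CPM, SD, n = 4; adjusted p = 0.619, edgeR quasi-likelihood test). The floxed exon is not given in the sources used here, so a value over the whole gene does not check the deletion. Reads of Y-linked genes were present in WT 2, WT 3, WT 4 and cKO 3 only, so sex was uneven between the genotypes. The sample numbers in the file headers place WT 4 and cKO 4 in a later series of numbers than the other 6 libraries. The labelled tissue was borne out by its markers, with the 12 proximal tubule markers summing to between 13553.7 and 22946.7 CPM in WT and between 4119.6 and 12067.8 CPM in cKO. In cKO, 5 of those 12 markers fell, all 7 injured tubule markers rose, and 9 of 10 macrophage and monocyte markers rose. Of 8 fibroblast and pericyte markers, 7 rose and 1 fell, and all 6 proliferation markers rose. Of 7 thick ascending limb and distal tubule markers, 1 rose and 3 fell, and of 7 collecting duct markers, 3 rose and 1 fell. Of 7 endothelium markers, 3 fell, and of 3 tested markers of T, NK and B cells, 1 rose. Over all genes tested, 9.57% rose and 7.14% fell. With a sex term, 0 of the 12 proximal tubule markers fell, against 1.63% of all genes. In that setting 7 of 7 injured tubule, 8 of 10 macrophage and monocyte, 5 of 8 fibroblast and pericyte and 6 of 6 proliferation markers rose, against 5.17%. There 1 thick ascending limb and distal tubule marker rose and 3 fell, and 0 collecting duct markers were called. Of the endothelium markers 1 fell, and of those of T, NK and B cells 1 rose.

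None of the 78 mitochondrial ribosomal protein genes passed the test in either direction. The summed level of the 49 large-subunit genes was 3773.2, 4450.5, 2208.0 and 2719.6 CPM in WT 1 to WT 4. In cKO 1 to cKO 4 it was 3072.8, 4737.3, 3290.1 and 2987.2 CPM. The sums of cKO 1, cKO 3 and cKO 4 lay within the WT range and that of cKO 2 just above it, and the means were 3287.8 ± 1012.6 and 3521.9 ± 820.3 CPM, a ratio of 1.07. The 29 small-subunit genes summed to 1903.1, 2073.4, 1119.5 and 1301.5 CPM in WT and to 1478.5, 2067.0, 1560.1 and 1438.1 CPM in cKO. Here every cKO library lay within the WT range, and the means were 1599.4 ± 460.4 and 1635.9 ± 291.8 CPM, a ratio of 1.02. Over the same libraries the sum of the 12 proximal tubule markers was 19388.5 ± 4264.1 CPM in WT and 8368.8 ± 3666.7 CPM in cKO. Its part in these sums was not tested.

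The comparison of the genotypes used edgeR's quasi-likelihood test, with p-values adjusted over all 13829 genes and a threshold of 0.05. It called 0 of 49 large-subunit genes and 0 of 29 small-subunit genes, against 16.7% of all genes tested (9.57% higher and 7.14% lower in cKO). With a sex term from the Y-linked reads it again called 0 of 78, against 6.80% of all genes (5.17% higher and 1.63% lower). At an unadjusted p under 0.05 there were 4 of 78 genes (Mrpl52, Mrpl33, Mrpl39 and Mrps5), against 33.1% of all genes. DESeq2, which called 22.9% of all genes, called 2 of the 78 higher (Mrpl52 and Mrpl33) and none lower, and limma-voom called none. The same 2 genes were called higher by edgeR with an age term, which called 21.5% of all genes, and with library size alone as scaling, which called 17.5%. WT and cKO libraries did not overlap for 4 of the 78 genes, against 22.6% of all genes. Those 4 were Mrpl52, with cKO above WT, and Mrpl39, Mrps5 and Mrps31, with cKO below.

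The median log2 fold change (cKO over WT) was 0.09 over the large subunit and 0.03 over the small subunit, beside -0.01 over all genes tested. Single genes ranged from -0.59 (Mrpl39) to 1.36 (Mrpl33) in the large subunit and from -0.51 (Mrps5) to 0.50 (Mrps18c) in the small subunit. The 95% interval of the log2 fold change lay within a 2-fold change in both directions for 67 of the 78 genes, against 43.9% of all genes. The 78 genes were also more abundant, with a median WT level of 56.4 CPM against 17.8 CPM over all genes tested. The part of abundance in this contrast was not tested. It reached past 2-fold in at least 1 direction for 9 of 49 large-subunit genes and 2 of 29 small-subunit genes. A p over the threshold does not show equal levels, and the median standard error of 0.25 (log2) left room for modest differences.

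**Figure D1:**
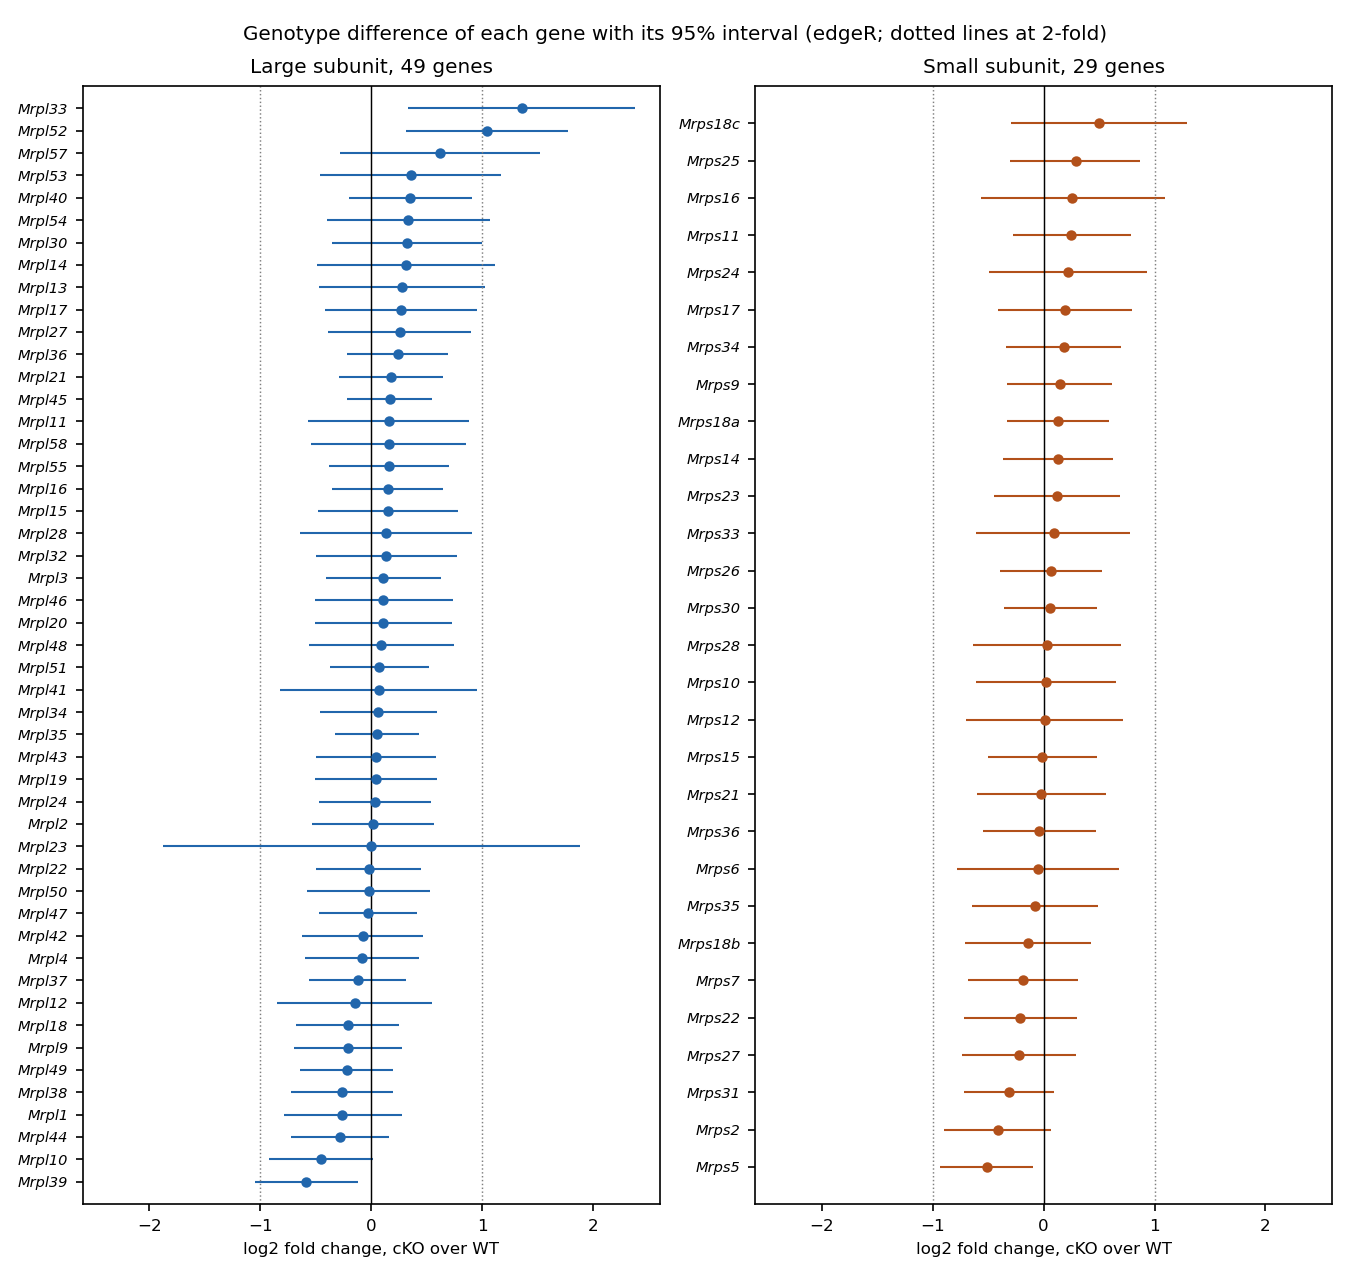
Log2 fold change (cKO over WT) of each gene with its 95% interval from edgeR, for 49 large-subunit genes (left) and 29 small-subunit genes (right), n = 4 libraries a group. Most points lie near 0, Mrpl33 (1.36) and Mrpl52 (1.04) stand highest, Mrpl39 (-0.59) stands lowest, and the interval of Mrpl23 runs from -1.88 to 1.88.

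Of the large-subunit genes, Mrpl52 and Mrpl33 had the largest positive differences. Mrpl52 (ENSMUSG00000010406, chr14:54426909-54429756 of mm10, 5 exons) encodes a protein found only in mitochondrial ribosomes. Its level was 47.3, 46.0, 19.5 and 28.2 CPM in WT 1 to WT 4 and 48.6, 112.5, 58.6 and 69.6 CPM in cKO 1 to cKO 4. Every cKO library was above every WT library, though cKO 1 exceeded WT 1 by little, and cKO 2 was the highest. The log2 fold change was 1.04 ± 0.33 (SE; adjusted p = 0.0533, edgeR). Mrpl33 (ENSMUSG00000106918, chr5:31596935-31664384, 4 exons) encodes the counterpart of bacterial L33 and is the shortest of the 78 proteins, with 65 amino acids. It stood at 60.1, 73.2, 26.5 and 31.0 CPM in WT and at 69.6, 258.2, 69.9 and 90.8 CPM in cKO. The groups overlapped through WT 2, and cKO 2 held more than any other library. Its log2 fold change was 1.36 ± 0.47 (SE; adjusted p = 0.0683, edgeR), and 0.69 without cKO 2 (adjusted p = 0.207). Mrpl33 lies across an expressed gene on the opposite strand, Rbks, and the strand setting of the counting is not given in the sources used here.

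Mrpl39 and Mrpl10 had the most negative differences in the large subunit. Mrpl39 (ENSMUSG00000022889, chr16:84717576-84735742, 10 exons) encodes a mitochondrial addition to the ribosome that resembles part of a threonyl-tRNA synthetase. It was at 51.1, 57.7, 42.9 and 46.6 CPM in WT and at 38.3, 25.0, 40.6 and 28.1 CPM in cKO. Every cKO library lay below every WT library (log2 fold change -0.59 ± 0.21, SE; adjusted p = 0.0811, edgeR). Mrpl10 (ENSMUSG00000001445, chr11:97041560-97049213, 5 exons) encodes the protein at the base of the stalk, the flexible arm that recruits translation factors. Its values were 93.5, 129.7, 75.0 and 82.6 CPM in WT against 75.3, 66.8, 75.0 and 61.3 CPM in cKO. The groups overlapped, with cKO 1 just above WT 3, and WT 2 was well above the rest (log2 fold change -0.45 ± 0.21, SE; adjusted p = 0.164, edgeR).

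In the small subunit, the 4 genes with the smallest adjusted p were Mrps5, Mrps2, Mrps31 and Mrps18c. Mrps5 (ENSMUSG00000027374, chr2:127587222-127606829, 12 exons) encodes the counterpart of bacterial S5, a protein near the decoding site. It had 44.8, 64.1, 48.3 and 56.4 CPM in WT and 40.3, 33.0, 38.8 and 37.3 CPM in cKO, with no overlap (log2 fold change -0.51 ± 0.19, SE; adjusted p = 0.0824, edgeR). Mrps31, specific to mitochondria, was nearly level across the WT libraries, at 24.3, 24.8, 25.6 and 26.1 CPM. In cKO it was at 24.0, 17.5, 21.7 and 17.7 CPM, so the gap between the groups was narrow (log2 fold change -0.31 ± 0.19, SE; adjusted p = 0.262, edgeR). Mrps2, the counterpart of bacterial S2, had 39.9, 38.7, 47.8 and 44.7 CPM in WT and 39.7, 20.8, 37.1 and 30.6 CPM in cKO. Only cKO 1 reached into the WT range (adjusted p = 0.216, edgeR). Mrps18c had 64.4, 52.1, 21.0 and 31.0 CPM in WT and 51.0, 95.8, 43.0 and 49.0 CPM in cKO. The WT libraries alone spanned most of the values seen, and cKO 2 was again the highest (log2 fold change 0.50 ± 0.36, SE; adjusted p = 0.355, edgeR).

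**Figure D2:**
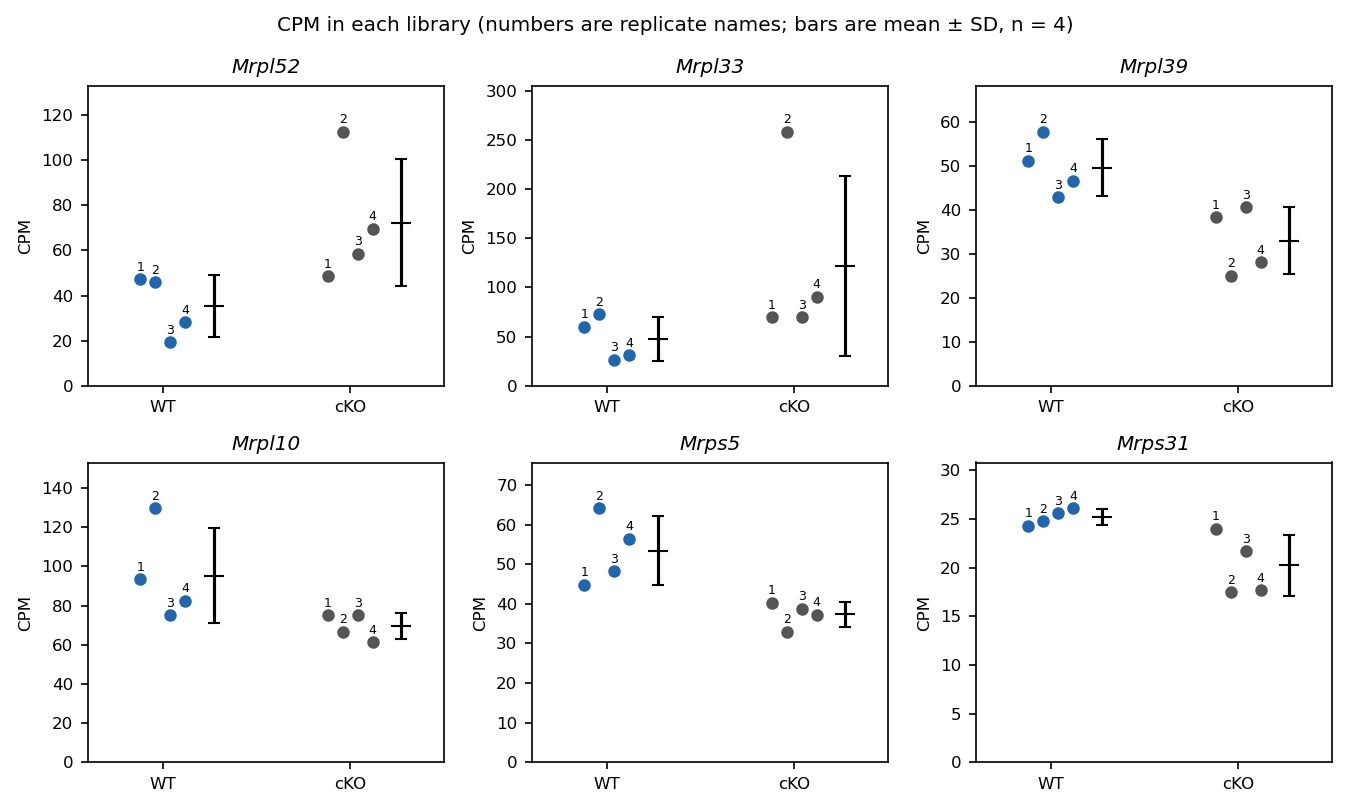
CPM of 6 genes in each of the 8 libraries, WT on the left and cKO on the right of each panel, with replicate numbers beside the points and the mean ± SD (n = 4) as a bar. In cKO 2, Mrpl52 (112.5 CPM) and Mrpl33 (258.2 CPM) are highest of all libraries while Mrpl39 (25.0 CPM) and Mrps5 (33.0 CPM) are lowest, and the Mrps31 panel shows little spread in WT.

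For 68 of the 78 genes the genotype means, in log2 CPM, differed by less than 1 pooled SD of the libraries within a genotype. WT 1 and WT 2 were both above WT 3 and WT 4 for 70 of the 78 genes (46 of 49 in the large subunit and 24 of 29 in the small subunit). WT 3 was the lowest WT library for 69 genes, and cKO 2 the highest cKO library for 61. These counts were not taken over all genes tested, so they do not set the 78 genes apart from other genes. The highest WT library held 1.98 times the lowest at the median over the 78 genes, and the highest cKO library 1.62 times the lowest. In log2 CPM, the large-subunit genes stood at a median of 0.23, 0.42, -0.54 and -0.28 from their own mean over the 8 libraries in WT 1 to WT 4. In cKO 1 to cKO 4 the medians were -0.07, 0.45, 0.02 and -0.11, so that cKO 2 resembled WT 2 and the other 3 cKO libraries lay between the WT extremes. The small subunit followed the same order in WT (0.20, 0.37, -0.51 and -0.25) and in cKO (-0.10, 0.38, 0.02 and -0.14).

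**Figure D3:**
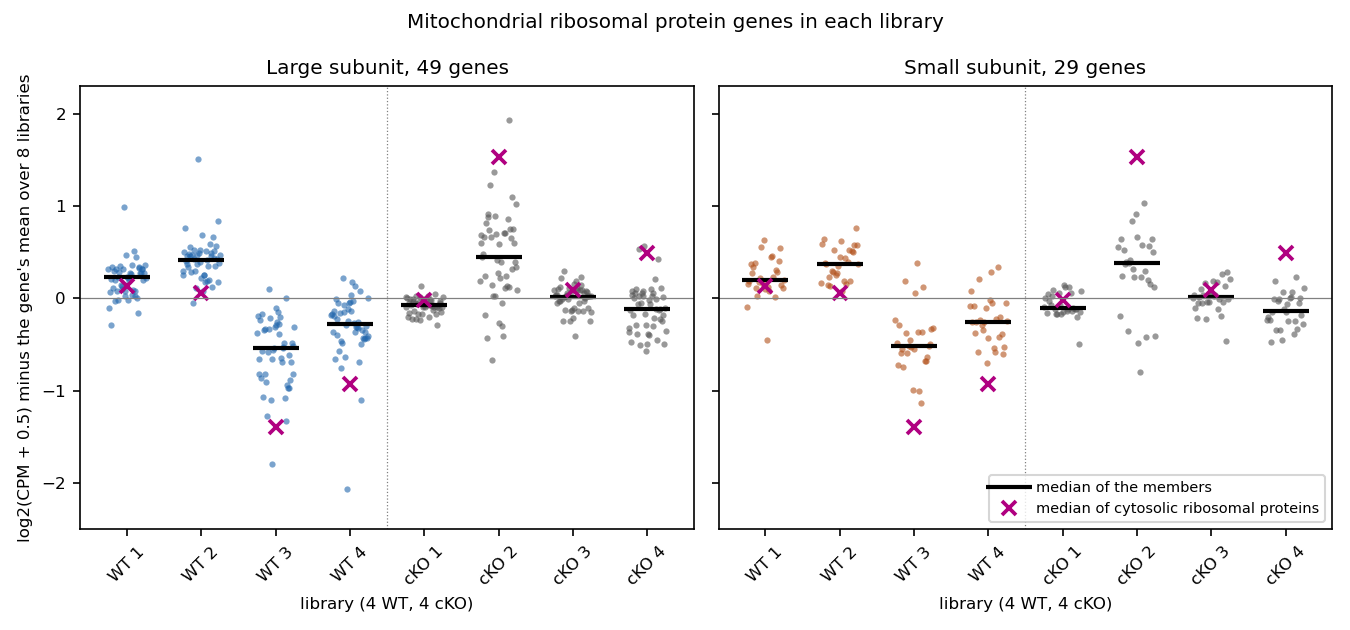
Each point is 1 gene's log2(CPM + 0.5) minus its mean over the 8 libraries, for the large subunit (left) and the small subunit (right), WT libraries in colour and cKO libraries in grey, with medians as black bars. Crosses give the median of 82 cytosolic ribosomal protein genes. WT 3 and WT 4 sit low and cKO 2 sits high in all 3 sets, with the widest swing in the cytosolic set.

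The same deviations were taken for 2 other sets of short genes, and for short genes at large. The 1636 protein-coding genes tested with up to 582 coding bases had median deviations of -0.57 in WT 3, -0.38 in WT 4 and 0.54 in cKO 2. For the 11475 longer ones these were 0.09, 0.07 and -0.08. The swing of these libraries was thus not particular to the ribosomal protein genes. The 82 tested genes for proteins of the cytosolic ribosome, which carries out all other protein synthesis in the cell, had median deviations of -1.39 in WT 3, -0.93 in WT 4 and 1.53 in cKO 2. Their median log2 fold change was 1.04, with 81 of 82 above 0. At an unadjusted p under 0.05 (edgeR) there were 60 of 82, against 33.1% of all genes. After adjustment 2 of 82 were called higher, against 9.57% of all genes (0 of 82 with a sex term, against 5.17%). The 74 nuclear-encoded subunits of the respiratory chain and ATP synthase, partners of the products of the mitochondrial ribosome, had median deviations of -0.72 in WT 3, -0.37 in WT 4 and 0.36 in cKO 2. WT 1 (0.49) and WT 2 (0.44) stood above cKO 2 in this set. The median log2 fold change was -0.03, and 1 of the 74 fell, against 7.14% of all genes. It was Ndufs1, a core subunit of complex I (270.0 ± 44.5 CPM in WT, 141.2 ± 42.8 CPM in cKO; adjusted p = 0.0307, edgeR; 0.178 with a sex term; 0.104 at most when WT 2, WT 3, WT 4, cKO 2 or cKO 4 was left out, each of which ended the call).

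Coding length went with these differences. The 78 genes are short, with a median coding length of 582 bases against 1374 bases over the protein-coding genes tested. Across the 78 genes, the log2 fold change correlated with coding length at a Spearman rho of -0.50, and across 13111 protein-coding genes tested at -0.27. These are correlations across genes measured in the same 8 libraries, given as a description. The deviations of single libraries followed length as well, with rho over the 78 genes of 0.59 in WT 3, 0.66 in WT 4 and -0.48 in cKO 2. The 39 shorter genes had a median log2 fold change of 0.13 and the 39 longer ones of -0.01. Protein-coding genes up to 582 coding bases had a median of 0.28 over 1636 genes, above that of the ribosomal protein genes.

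Each library was also scaled by a smooth curve over coding length, a setting added after the data were seen. The curve was fitted over protein-coding genes of these same libraries, so a weaker relation with length was built in. With it, rho over the 78 genes was -0.12 and the median standard error fell from 0.25 to 0.18 (log2). These standard errors treat the curve as known. The median log2 fold change was then -0.11 in the large subunit and -0.17 in the small subunit, with 57 of 78 genes below 0. In this setting 5 genes passed the test: Mrpl52 (log2 fold change 0.72, adjusted p = 0.0194, edgeR) and Mrpl33 (0.88, adjusted p = 0.0269) higher, and Mrpl10 (-0.58, adjusted p = 0.0351), Mrpl39 (-0.64, adjusted p = 0.0351) and Mrps5 (-0.51, adjusted p = 0.0426) lower in cKO. They are 5 of 78 genes where 20.3% of all genes were called (11.3% higher and 8.94% lower). In the same setting the cytosolic ribosomal protein genes had a median log2 fold change of 0.82, with 16 of 82 higher. Their median deviations were then -0.87 in WT 3, -0.60 in WT 4 and 1.09 in cKO 2. The respiratory chain subunits had a median log2 fold change of -0.27, with 68 of 74 below 0 and 2 lower by the test. With a curve over transcript length instead, which called 19.9% of all genes (11.0% higher and 8.89% lower), Mrpl33 was higher and Mrpl10 and Mrpl39 were lower. Mrpl52 (adjusted p = 0.0632, edgeR) and Mrps5 (0.151) were not called there. Neither curve was combined with a sex term or run with a library left out. With TMM scaling and a sex term, the adjusted p of the 5 genes ran from 0.233 (Mrpl52) to 0.428 (Mrpl10, edgeR). Which of these scalings is the right one was not tested.

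**Figure D4:**
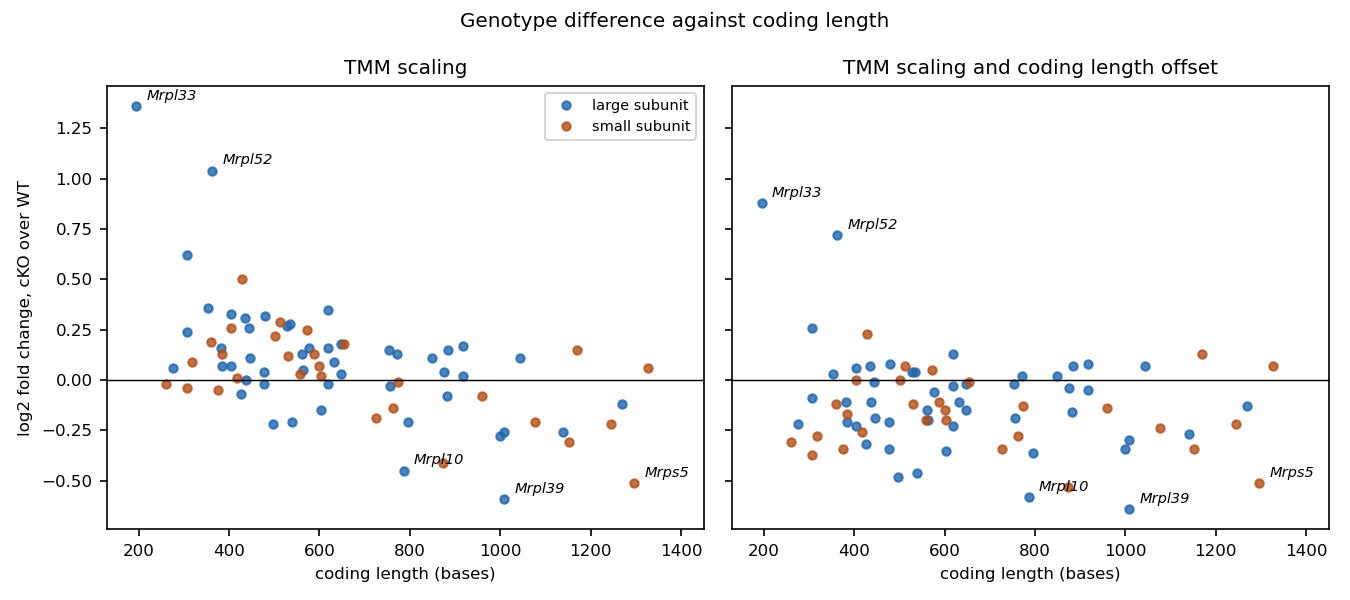
Log2 fold change (cKO over WT) against coding length in bases for the 78 genes, with TMM scaling (left) and with a further offset by coding length (right), large subunit in blue and small subunit in orange. On the left, values decline from the shortest gene (Mrpl33, 1.36) to the longer ones (rho -0.50). On the right the slope is weaker (rho -0.12), which the fit of the offset to length builds in, while Mrpl33 (0.88) and Mrpl52 (0.72) still stand highest.

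The genes were also grouped by place and origin, and the groups were not tested against each other. The 46 genes with a counterpart in bacterial ribosomes had a median log2 fold change of 0.09 and the 31 found only in mitochondrial ribosomes 0.07. The stalk genes Mrpl10, Mrpl11 and Mrpl12 summed to 429.6 ± 162.5 CPM in WT and 385.7 ± 93.1 CPM in cKO. Mrpl22, Mrpl23, Mrpl24, Mrpl45 and Mrpl47, at the exit tunnel through which the new chain leaves, summed to 178.7 ± 40.9 CPM in WT and 185.1 ± 17.6 CPM in cKO. Mrpl18, Mrpl38, Mrpl40, Mrpl46 and Mrpl48, of the central protuberance where the subunits and tRNAs meet, summed to 302.8 ± 80.2 CPM in WT and 300.9 ± 50.7 CPM in cKO. In each of these 3 sets the means differed by less than the SD in WT. The sets were drawn up after the data were seen.

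Levels between genes were compared as CPM per kilobase of transcript. In WT the median was 47.3 CPM per kb over the large subunit and 28.7 over the small subunit, against 6.04 over the protein-coding genes tested. The range was wide for proteins that enter 1 complex in equal numbers apart from the stalk, from 4.95 (Mrpl19) to 232.7 CPM per kb (Mrps21). These values divide by the length of the 1 transcript chosen per gene, so range and order depend on that choice. For Mrpl19 it has 5000 bases (876 coding) and for Mrps21 488 bases (261 coding). The order of the genes was nearly the same in both genotypes, with a Spearman rho of 0.98 between WT and cKO means over the 78 genes.

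**Figure D5:**
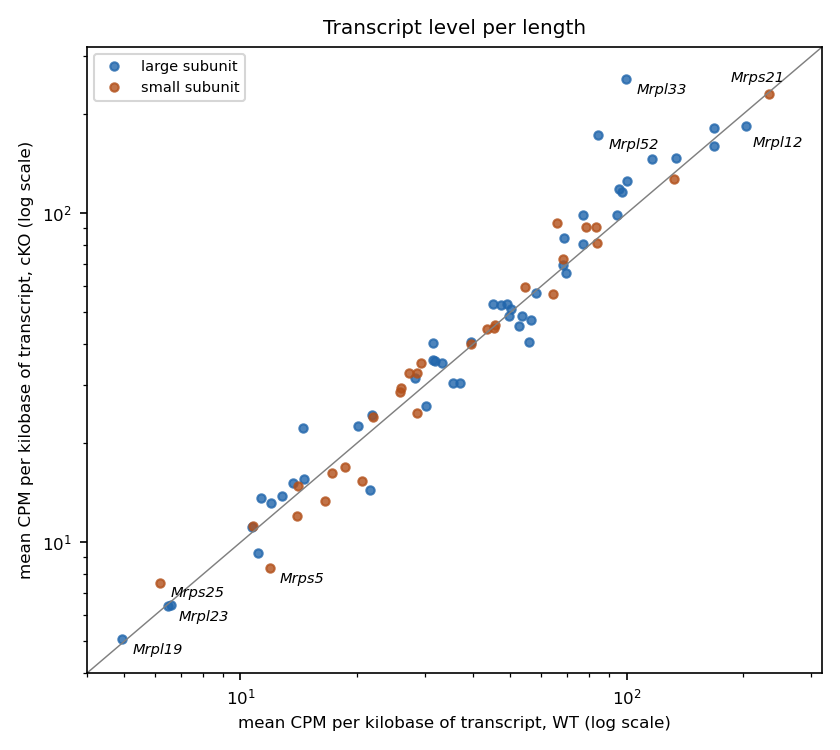
Mean CPM per kilobase of transcript in WT (horizontal) and cKO (vertical), both on log scales, for the 78 genes, with the line of equal levels in grey. The points follow the line from Mrpl19 (4.95 in WT) to Mrps21 (232.7 in WT), and Mrpl33 and Mrpl52 lie farthest above it.

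Mrps21, Mrpl12, Mrpl20, Mrpl42, Mrpl28 and Mrps6 headed the WT order. Mrpl12 (ENSMUSG00000039640) encodes the stalk protein that binds translation factors and is also known as a partner of the mitochondrial RNA polymerase. It had 281.9, 414.1, 154.1 and 220.8 CPM in WT and 210.9, 332.0, 249.7 and 174.6 CPM in cKO, an overlap over most of the range (log2 fold change -0.15, 95% interval -0.85 to 0.55). Mrps21, counterpart of bacterial S21, had 145.1, 155.2, 70.4 and 83.6 CPM in WT and 101.2, 122.0, 120.0 and 105.7 CPM in cKO. All its cKO libraries lay between the 2 high and the 2 low WT libraries (log2 fold change -0.02, 95% interval -0.60 to 0.56). Mrpl20, counterpart of bacterial L20, had 136.4, 181.6, 87.7 and 108.8 CPM in WT and 115.2, 209.2, 117.4 and 114.9 CPM in cKO. Only cKO 2 was outside the WT range. Mrpl42, of mitochondrial origin, had 152.2, 135.9, 73.9 and 86.0 CPM in WT and 104.9, 115.0, 113.3 and 92.0 CPM in cKO, and the cKO libraries again fell in the gap between the WT libraries. Mrps6, counterpart of bacterial S6, had 151.3, 155.3, 72.3 and 68.0 CPM in WT and 90.2, 162.2, 75.1 and 103.9 CPM in cKO, with WT 1 and WT 2 again above WT 3 and WT 4.

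Mrpl19, Mrps25 and Mrpl23 were at the low end per length of the chosen transcript, which has 5000, 6073 and 692 bases (876, 513 and 438 coding). Mrpl19, counterpart of bacterial L19, had 31.7, 32.0, 17.0 and 18.4 CPM in WT and 22.9, 31.2, 25.0 and 22.7 CPM in cKO (log2 fold change 0.04, 95% interval -0.51 to 0.59). Mrps25, a protein of mitochondrial origin, had 52.5, 47.4, 23.8 and 26.7 CPM in WT and 41.0, 53.2, 43.2 and 46.0 CPM in cKO. Both genes showed the same pairs of high and low WT libraries. Mrpl23, counterpart of the exit-tunnel protein L23 of bacteria, had 6.90, 10.1, 0.572 and 0.388 CPM in WT and 3.60, 6.42, 2.63 and 5.03 CPM in cKO. Its highest WT library held 26.0 times the lowest, the widest span in WT of the 78 genes.

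Most reads that could come from Mrpl23 were assigned elsewhere. Its processed pseudogene Mrpl23-ps1 (chr2:74591330-74591909, minus strand) had 49.6, 32.0, 15.4 and 21.3 CPM in WT and 37.9, 78.3, 43.5 and 52.4 CPM in cKO. The parent gene thus held 1.79% to 24.0% of the reads of the pair in a library, and its own level is uncertain. The sum of both was 34.1 ± 18.7 CPM in WT and 57.4 ± 19.4 CPM in cKO, with overlapping groups (56.5, 42.1, 16.0 and 21.7 against 41.5, 84.8, 46.2 and 57.4 CPM). On the sum, WT 3 and WT 4 were again the lowest libraries and cKO 2 the highest. The pseudogene alone had a log2 fold change of 0.84 (adjusted p = 0.122, edgeR).

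Several genes sit elsewhere than their symbol says. Mrps18a and Mrps30 encode proteins that structures place in the large subunit, and Mrps36 encodes a part of the oxoglutarate dehydrogenase complex. Mrps18a had 77.3, 93.0, 58.4 and 64.7 CPM in WT and 70.2, 99.2, 78.0 and 74.3 CPM in cKO. Mrps30 had 38.5, 41.4, 28.1 and 35.1 CPM in WT and 32.9, 42.6, 37.1 and 36.4 CPM in cKO. Mrps36 had 66.9, 75.1, 44.0 and 48.8 CPM in WT and 59.1, 69.7, 56.4 and 43.3 CPM in cKO. In all 3 the groups overlapped. Mrps18b, a paralog of Mrps18a and Mrps18c that has its own place in the small subunit, had 13.5, 29.0, 19.5 and 18.4 CPM in WT and 20.6, 13.2, 21.3 and 17.8 CPM in cKO. With the subunits drawn by structure, the median log2 fold change was 0.09 over 51 large-subunit genes and 0.02 over 26 small-subunit genes, and none was called.

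Of the other genes of mitochondrial translation, 7 were called, all lower in cKO, out of 93 tested in 5 lists, where 7.14% of all genes were called lower. None of 5 further ribosomal proteins that bear other names was called. The most abundant were Aurkaip1 (99.2 ± 41.7 CPM in WT, 97.8 ± 9.78 CPM in cKO) and Dap3, a GTP-binding protein of the small subunit (80.9 ± 13.4 CPM in WT, 69.6 ± 6.42 CPM in cKO). Of 27 genes for ribosome assembly, 1 fell. It was Grsf1, an RNA-binding protein of mitochondrial RNA granules, at 169.8, 211.6, 190.2 and 184.0 CPM in WT and 138.5, 126.0, 112.0 and 94.8 CPM in cKO, without overlap (log2 fold change -0.68 ± 0.20, SE; adjusted p = 0.0372, edgeR). With a sex term its adjusted p was 0.163, and the call was lost without any 1 of WT 2, WT 3, WT 4, cKO 3 or cKO 4 (adjusted p up to 0.116).

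Of 17 translation factors, 3 fell and none rose, against 7.14% and 9.57% of all genes, with a median log2 fold change of -0.43. Gfm2, the factor that recycles ribosomes together with Mrrf, had 47.8, 65.9, 75.3 and 70.6 CPM in WT and 35.8, 23.3, 33.9 and 28.6 CPM in cKO (log2 fold change -1.09 ± 0.22, SE; adjusted p = 0.00713, edgeR). All cKO libraries were below all WT libraries, and the call held without each library in turn (adjusted p up to 0.0298) but not with a sex term (0.0576). Mtif3, an initiation factor, was at 36.0 ± 10.3 CPM in WT and 19.8 ± 3.60 CPM in cKO (adjusted p = 0.0299, edgeR; 0.177 with a sex term). Gfm1, the elongation factor that moves the ribosome along, was at 111.4 ± 34.3 CPM in WT and 62.9 ± 12.6 CPM in cKO (adjusted p = 0.0490, edgeR; 0.346 with a sex term). The call of Mtif3 was lost without WT 2, WT 4, cKO 1, cKO 3 or cKO 4 (adjusted p up to 0.0926), and that of Gfm1 without any library but WT 1 and cKO 1 (up to 0.152).

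Of 22 genes for mitochondrial aminoacyl-tRNA synthesis, 2 fell, near the 7.14% of all genes, and the median log2 fold change was -0.38. Gatb, part of the amidotransferase that makes glutaminyl-tRNA, had 66.0, 93.7, 75.6 and 85.2 CPM in WT and 50.8, 33.0, 49.6 and 32.3 CPM in cKO (adjusted p = 0.0152, edgeR; 0.0968 with a sex term; 0.0550 without cKO 4). Rars2, the arginyl-tRNA synthetase, was at 50.3 ± 9.01 CPM in WT and 29.5 ± 6.73 CPM in cKO (adjusted p = 0.0396, edgeR; 0.260 with a sex term), and its call held only with all libraries or without WT 1. Of 22 genes for mitochondrial DNA upkeep, transcription and RNA processing, 1 fell, below that share. It was Polg, the mitochondrial DNA polymerase, at 32.6 ± 4.38 CPM in WT and 20.1 ± 4.38 CPM in cKO (adjusted p = 0.0488, edgeR; 0.249 with a sex term), and its call too held only with all libraries or without WT 1. The genes of these lists are longer than those of the ribosomal proteins, with median coding lengths of 1143 to 1695 bases for the 4 lists with a call. With the coding length offset the medians were -0.36 for the translation factors and -0.26 for the synthetases. The difference between these lists and the ribosomal proteins was not tested.

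The 2 ribosomal RNAs, added after the data were seen, are encoded in mitochondrial DNA and carry short tails, so a library of polyadenylated RNA catches them in part. The small-subunit RNA mt-Rnr1 was at 621.3 ± 333.9 CPM in WT and 698.1 ± 239.6 CPM in cKO, and the large-subunit RNA mt-Rnr2 at 1125.4 ± 721.2 CPM in WT and 1373.1 ± 519.4 CPM in cKO. Both differed by less than the SD of either group (adjusted p = 0.788 and 0.679, edgeR).

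Among 12 regulators of mitochondrial gene programs, 1 rose and 3 fell, against 9.57% and 7.14% of all genes. With a sex term 1 rose and 0 fell, against 5.17% and 1.63%. With the coding length offset 1 rose and 5 fell, against 11.3% and 8.94%. The 5 then included Esrra (adjusted p = 0.0317, edgeR) and Esrrb (0.0462). The values below are from the main setting unless a sex term or a library left out is named. Myc, a factor that drives ribosome production, rose from 1.98, 1.03, 2.69 and 2.72 CPM in WT to 9.52, 15.7, 9.60 and 34.2 CPM in cKO (log2 fold change 3.00 ± 0.47, SE; adjusted p = 0.00192, edgeR; 0.0131 with a sex term). Ppargc1a, the coactivator PGC-1alpha, fell from 32.3, 30.4, 54.7 and 46.6 CPM to 25.3, 14.6, 14.2 and 10.3 CPM (adjusted p = 0.0123, edgeR; 0.0649 with a sex term). Esrrg, an orphan nuclear receptor, fell from 51.2 ± 10.1 to 20.5 ± 9.54 CPM (adjusted p = 0.0152, edgeR; 0.0755 with a sex term; 0.0529 without cKO 4). Ppara, the receptor for fatty acids, fell from 31.0 ± 10.4 to 11.9 ± 6.06 CPM (adjusted p = 0.0374, edgeR; 0.265 with a sex term), a call lost without any library but WT 1 and cKO 1. The factors known to bind promoters of ribosomal protein genes of this kind were not called. Nrf1 was at 11.3 ± 3.14 CPM in WT and 13.6 ± 1.05 CPM in cKO (adjusted p = 0.469, edgeR). Gabpa was at 29.8 ± 9.63 and 19.4 ± 3.75 CPM (adjusted p = 0.122), its partner Gabpb1 at 17.2 ± 11.1 and 11.7 ± 1.91 CPM (0.303), and Yy1 at 33.1 ± 3.04 and 34.8 ± 12.6 CPM (0.859). Esrra stood at 131.1 ± 30.2 CPM in WT and 84.6 ± 7.62 CPM in cKO (adjusted p = 0.0592, edgeR), Esrrb at 22.8 ± 9.61 and 9.31 ± 4.06 CPM (0.0529), Ppargc1b at 3.44 ± 1.97 and 1.11 ± 0.616 CPM (0.0689) and Pprc1 at 7.39 ± 4.60 and 8.16 ± 3.22 CPM (0.856).

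The promoters of the ribosomal protein genes were read from RefSeq (GRCm38.p6), as 300-base windows with 250 bases before and 50 after the start. Windows were found for 69 of the 78 genes, and 3 are shown for their motifs. Mrps21 and Mrpl12 were the most abundant genes per length of their subunits in WT, and Mrpl52 had the smallest adjusted p. The 250 bases before the start are given 5′ to 3′ on the strand of the gene, with matches to the motifs below in capitals. They lie at chr3:95871515-95871764 (minus strand), chr11:120484387-120484636 (plus) and chr14:54426659-54426908 (plus).
Mrps21: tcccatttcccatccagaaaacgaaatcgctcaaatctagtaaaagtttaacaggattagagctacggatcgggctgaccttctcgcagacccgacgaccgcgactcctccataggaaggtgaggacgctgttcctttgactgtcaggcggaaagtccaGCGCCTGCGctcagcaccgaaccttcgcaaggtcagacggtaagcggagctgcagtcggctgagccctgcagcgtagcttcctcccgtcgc
Mrpl12: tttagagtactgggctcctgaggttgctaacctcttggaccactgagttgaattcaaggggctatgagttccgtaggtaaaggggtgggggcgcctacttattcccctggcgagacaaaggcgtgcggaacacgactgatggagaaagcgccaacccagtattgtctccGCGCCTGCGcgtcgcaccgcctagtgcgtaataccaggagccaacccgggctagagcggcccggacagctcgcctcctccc
Mrpl52: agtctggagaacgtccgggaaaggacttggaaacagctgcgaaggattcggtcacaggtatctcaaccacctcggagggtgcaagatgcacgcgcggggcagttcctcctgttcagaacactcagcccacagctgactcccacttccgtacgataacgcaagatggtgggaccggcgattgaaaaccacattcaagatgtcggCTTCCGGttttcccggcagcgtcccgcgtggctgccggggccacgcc

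In the bases shown, Mrps21 and Mrpl12 hold 1 match each to GCGCNTGCG, from the core of the site of the factor NRF1. Mrpl52 holds a match there to CCGGAAG, the core bound by GABP and other ETS factors, on the opposite strand. Over the full 300-base windows, Mrps21 also holds 1 match to CCGGAAG and Mrpl52 holds 2. Both strands of the full windows were searched, and no motif here contains another. The NRF1 letters were in windows of 18 of 69 genes (26.1%), against 14.6% of 10326 protein-coding genes tested and 14.1% of 64 cytosolic ribosomal protein genes. The ETS letters were in those of 26 genes (37.7%), against 19.4% and 40.6%. AAGATGGC, the core of the YY1 site, was in those of 12 genes (17.4%), against 5.06% and 9.38%. At least 1 of these 3 motifs was present for 44 of the 69 genes. CACGTG, the E-box that Myc can bind, was in 7.25% of the genes, against 11.5% of all, and TGATGCAA, a composite site of the stress factor ATF4, in 0 of 69, against 0.746%. A match is a run of letters and not a measured site. The median log2 fold change was 0.09 for the 44 genes with any of the first 3 motifs and 0.03 for the 25 without.

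The 78 genes lie on 17 chromosomes, with 11 of them on chromosome 11 and none on 18 or X. Starts of 24 of the 78 lie within 500 bases of the start of another tested protein-coding gene on the other strand. Of the 24 partner genes, 1 was called, against 16.7% of all genes: Ska3, a chromosome segregation gene, partner of Mrpl57, was higher in cKO (0.229 ± 0.204 CPM in WT, 1.65 ± 0.433 CPM in cKO; adjusted p = 0.0106, edgeR), while Mrpl57 was at 41.8 and 64.3 CPM (adjusted p = 0.318). Mrps11 and Mrpl46 are such a pair between the 2 subunits, with log2 fold changes of 0.25 and 0.11. Mrpl36 shares its start region with Ndufs6, a subunit of complex I (log2 fold changes 0.24 and 0.20), and Mrps12 with Sars2, the mitochondrial seryl-tRNA synthetase (0.01 and -0.34). Mrpl49 lies beside Fau, which encodes a cytosolic ribosomal protein (-0.22 and 0.70). In all, 21 of the 78 genes overlap another expressed gene, 19 of them one on the opposite strand, and reads there may be shared.

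The genotype difference was also compared between libraries with and without Y-linked reads. The interaction was called for 0 of 78 genes, against 0.0651% of all genes (edgeR; lowest adjusted p 1.0; 0 of 78 at an unadjusted p under 0.05; no other tool was run). With 1 library in 2 of the 4 combinations of genotype and sex, this comparison was coarse.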

How the data were processed

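Mouse kidney RNA of 4 WT and 4 cKO samples was measured. Libraries were stranded and of polyadenylated RNA, per the labels' protocols. The authors used STAR, RSEM and the build mm10, per the submitters' processing notes, and deposited expected counts per Ensembl gene, not scaled, 1 table per library. Of the annotation release, the tool versions and the strand setting, nothing is recorded there. Expected counts can split reads between near-identical genes, so genes with pseudogenes are uncertain.

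Symbols and positions came from GENCODE for 47224 of 47643 identifiers. Counts were rounded, filtered with filterByExpr (13829 genes) and scaled by TMM. The main test was edgeR 4.0.16 (glmQLFit, glmQLFTest, robust, two-sided) with Benjamini-Hochberg adjustment over all genes, threshold 0.05. Tests used limma 3.58.1 and DESeq2 1.42.0 as alternatives, and scripts were tested on simulated data. CPM are counts scaled by the TMM library sizes. Lengths and exons are those of 1 principal transcript per gene. Intervals are 95%. Replicates are labelled as separate samples and nothing says more of their origin, so p-values measure the spread between these samples. No per-sample column was left unused.

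The genes, lists and tests were chosen with earlier results of these data known. By rule, library values are given for the 4 genes of each subunit with the smallest adjusted p, the 3 highest and 2 lowest per kilobase in WT, and those whose place differs from the symbol. From each list of mitochondrial genes up to 4 called genes are named (the 2 most abundant if none), and all regulators. Cytosolic ribosomal protein and cell type marker lists are given by counts. Genes named outside these rules were chosen after their values were seen. Replicate numbers were not treated as pairs: profiles of equal number correlated at -0.08, 0.28, 0.12 and 0.00.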

Additional observations from a re-analysis of the deposited data

Results flagged for a closer look

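In 3 of 44 groups of 4 libraries examined, 1 library stood far from the other 3 by Dixon's criterion, which chance meets in about 1 group in 20. All 3 were cKO 2, labelled with an age of 2.5 months. Mrpl33 was at 258.2 CPM where the next cKO library held 90.8. Mrpl20 was at 209.2 CPM where the next held 117.4, and Mrps18c at 95.8 CPM where the next held 51.0. The 44 groups did not cover all 78 genes, and they shared the same libraries. Other genes had cKO 2 far above too, such as Mrpl17 (144.5 CPM, next cKO library 87.4) and Mrpl57 (122.2 CPM, next 48.0). Over the 78 genes, cKO 2 was the highest cKO library for 61 and the lowest for 11. In the same library the cytosolic ribosomal protein genes stood at a median of 1.53 above their mean (log2), and the 12 proximal tubule markers at -1.36. The part of age, sex, cell makeup or library in these values was not tested. No interaction of genotype with sex passed the test for any of the 78 genes.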

How the results depend on the processing

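The main setting called 0 genes of either subunit in either direction. In the large subunit, 2 genes were higher with DESeq2, with an age term, with library size alone as scaling and with the offset by coding length. These settings called 17.5% to 22.9% of all genes. There were also 2 at an adjusted p under 0.1, where the share of all genes was not taken. There was 1 with upper quartile scaling, which called 2274 of 13829 genes, and 1 without a count filter, which called 2393 of 21907. The offset by transcript length, which called 19.9% of all genes, gave 1. Leaving out each library gave 0 to 1. The 1 was Mrpl52, without WT 1 (3093 of 14077 genes called) or without cKO 1 (2195 of 14006). With the replicate block, which called 16.0% of all genes, there were 2 higher large-subunit genes (Mrpl52 and Mrpl33), and medians of 0.11 and 0.06. The block changed no other call of the 78 genes. Lower large-subunit genes numbered 2 with either length offset and 1 at an adjusted p under 0.1. Lower small-subunit genes numbered 1 with the offset by coding length and 1 at an adjusted p under 0.1. All other alternatives gave 0, including a sex term and contrasts within libraries with or without Y-linked reads. Those contrasts each have an arm of 1 library and called 480 and 120 of 13829 genes, so the 0 says little. The cause of these differences was not tested.

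The median log2 fold change ranged from -0.13 to 0.26 in the large subunit and from -0.25 to 0.20 in the small subunit, with a change of sign in 5 and 7 of 27 alternatives, so neither median has a settled direction. Without WT 3 or without cKO 2 both were negative. Scaling by library size moved the median of all genes by 0.159. Of the 520 alternative values of 20 genes given by library, 20 passed the threshold, 13 moved by over 1 SD and 68 changed sign, in 12 of the 20 genes. Of 29 called genes followed from the mitochondrial and marker lists, not all that were called, 16 lost the call with a sex term and 11 without at least 1 library. The length offsets and a term for the 2 series of sample numbers were added after the data were seen. Mrpl23 is limited by reads shared with its pseudogene.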
